A study of Homo sapiens with 32 samples.

Results

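The network of transcription factors around MYC and MAX was followed at the level of messenger RNA decay in a pair of related human breast cancer cell lines. The members were 10 genes taken from a fixed list (MYC, MXD1, MXD3, MXD4, MXI1, MAX, MNT, MGA, MLX and MLXIP) and found by mapping the RefSeq rows of the decay rate tables to current symbols. Of these, 9 had rows in both tables, out of 10829 genes in all, and MNT was not analysed here. The 9 genes had 12 of the 12966 transcripts that both tables share, and MAX had 3 more transcripts with rates in a single line. The lines were MDA-MB-231, an established line with mesenchymal traits, and MDA-LM2, derived from it by selection for growth in the lung. The labels give no genetic change and no other treatment for either. Both were given a 2 h pulse of 4-thiouridine (4sU), a uridine analogue that marks RNA made during the pulse, and were then moved to medium with excess uridine. Labelled RNA was isolated at 0, 2, 4 and 7 h, which gave 32 libraries, and the tables hold 1 rate per transcript for each of 4 series per line.

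MYC pairs with MAX to bind E-box DNA and activate genes of growth and ribosome production. The MXD proteins and MXI1 compete for MAX and repress the same kind of site through the SIN3 corepressor, MGA is a large MAX-binding repressor, and MLX serves as the MAX-like partner of MLXIP (MondoA), a sensor of glucose metabolites. MYC messenger RNA is a textbook example of a short-lived transcript, with AU-rich elements in its 3′ untranslated region (UTR).

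AU-rich elements were counted in the 3′ UTRs that GENCODE release 29 (GRCh38) gives for the member transcripts, on the sense strand only and with overlapping matches allowed. The core pentamer ATTTA was present in 71.0% of 11567 matched 3′ UTRs of transcripts in both tables, and the longer form TATTTAT, which contains it, in 32.2%. MYC had 4 pentamers in 476 bases, a density of 8.40 per kb that exceeded that of 97.7% of these UTRs, and no TATTTAT. Among 1254 UTRs of similar length (0.8 to 1.25 times), 5.02% had as many pentamers. MXD1 had 10 pentamers in 4661 bases, MGA 4 in 2661, MAX 3 in 1352, MXI1 3 in 1519, MLXIP 3 in 5535, MLX 2 in 1636, MXD3 1 in 1619 and MXD4 none in 3112. MYC thus stood apart from the other members in density and not in number. The TATTTAT sites of the 4 members that had one are shown. They sit in fast and slow transcripts alike, and whether they bear on the rates was not tested. They lie in the 3′ UTR exons of MXD1 (chr2:69939511-69939531, plus strand), MGA (chr15:41768378-41768398, plus strand), MAX (chr14:65075635-65075655, minus strand) and MXD3 (chr5:177306923-177306943, minus strand), all in GRCh38, with the heptamer in capitals:
MXD1: taaatacTATTTATtcatttt
MGA: gtaaagaTATTTATatttttg
MAX: gttttgaTATTTATttcctgc
MXD3: caacaagTATTTATtgagtgt
Among UTRs of length similar to that of MXD1, 71.9% held the heptamer, and the shares were 54.4% for MGA, 33.2% for MAX and 38.1% for MXD3. Over all matched transcripts the median rate was 0.171 for the 3728 with the heptamer and 0.153 for the 7839 without it in MDA-LM2, and 0.192 and 0.193 in the parental line. A match describes the letters and says nothing of protein binding.

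The unit of the rates is that of the deposited tables. A positive rate is read as a fall of labelled RNA with time and a rate near 0 as little change. The scaling between time points behind this reading is not stated. Errors are SDs over the 4 series. The median over all genes was 0.165 ± 0.0106 for MDA-LM2 and 0.189 ± 0.0152 for MDA-MB-231 (n = 4 series each). Most rates lay within 1 of 0, a span called in range below. Rates outside it reached -8.59 and 9.84 among the member transcripts, and neither the log base nor how zero abundance was treated is stated in the labels or headers. Among members they were 4 of 36 values for MDA-LM2 and 10 of 36 for MDA-MB-231, beside 3.96% and 17.5% over all genes. In MDA-LM2 2 members had at least 1 rate out of range and in MDA-MB-231 6 had, against 9.70% and 31.9% of all genes. Series are named by the pair of numbers in their label (1_1, 1_2, 2_1 and 2_2), listed in that order throughout, and what the numbers stand for is not stated. The labels do not say whether series are separate cultures, so p-values measure the spread between series, which may be technical. Of 7 cell type genes looked up, 5 (VIM, CD44, KRT8, KRT18 and EPCAM) had rates in both lines, and CDH1 and ESR1 did not. A decay rate gives no level of expression, so no cell identity is read from these rows.

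**Figure D1:**
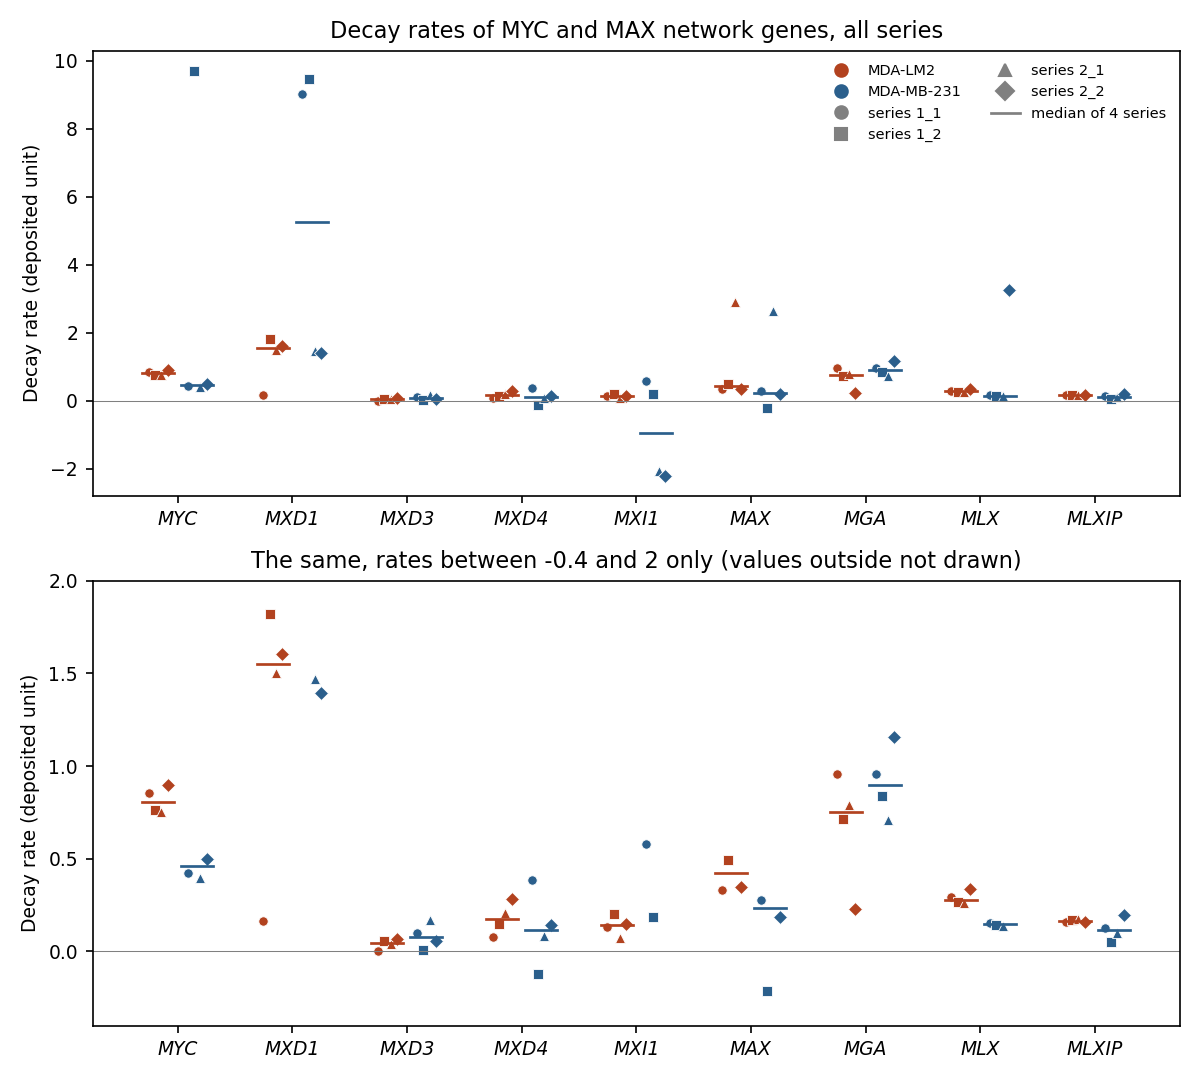
Decay rate in the deposited unit of each of the 9 measured members in every series (points; marker shape gives the series, colour the line), with the median of the 4 series of a line as a bar; the lower panel shows the same on a narrower axis and leaves out values beyond it. MYC had 4 MDA-LM2 rates of 0.750 to 0.896 and 3 MDA-MB-231 rates of 0.397 to 0.496 with a lone value at 9.70, while MXD3 and MLXIP lay between 0.00447 and 0.194 in all series.

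MYC decayed fast in MDA-LM2 and less so in 3 of the 4 MDA-MB-231 series. In MDA-LM2 its rates were 0.854, 0.763, 0.750 and 0.896 in series 1_1, 1_2, 2_1 and 2_2, a mean of 0.816 ± 0.0709. In MDA-MB-231 they were 0.421, 9.70, 0.397 and 0.496. Series 1_2 was thus far above all others, and the remaining 3 lay below every MDA-LM2 rate. The median of the 4 series stood above that of 96.7% of genes for MDA-LM2 and of 76.5% for MDA-MB-231. Subtracting the MDA-MB-231 mean from the MDA-LM2 mean gave -1.94 with a standard error of 2.16 (limma adjusted p = 0.549), so the lines did not differ beyond the spread of all 8 series. Without MDA-MB-231 series 1_2 the difference turned to 0.378, faster in MDA-LM2, with a limma adjusted p of 0.0132, a fit in which 2.61% of all genes were called faster. That call was lost when a correlation between series of 1 line with the same second number was allowed (limma adjusted p = 0.107). A correlation by the first number was not fitted, for this or any other gene. The omitted series was chosen for its value, so these figures describe how far 1 series sets the result. The score in the authors' deposited table was 0.536 for MYC, where a positive score marks the lower mean rate in MDA-LM2.

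MXD1, a repressor that replaces MYC on MAX as cells differentiate, was the fastest member in both lines. Its MDA-LM2 rates were 0.165, 1.82, 1.50 and 1.60, so that 1 series was slow and 3 were fast. Its MDA-MB-231 rates were 9.02, 9.45, 1.47 and 1.39, so that 1_1 and 1_2 lay far above every MDA-LM2 value and 2_1 and 2_2 lay among them. All 4 MDA-MB-231 rates and 3 MDA-LM2 rates were out of range. The difference of -4.06 (standard error 2.25) did not pass (limma adjusted p = 0.28), and with rates limited to within 1 of 0 it was -0.209. The medians exceeded those of 98.2% of genes for MDA-LM2 and 95.2% for MDA-MB-231, so MXD1 ranked high in each line.

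The other MXD members did not share that speed. MXD3, which is expressed in dividing cells, was the slowest member in MDA-LM2, at 0.00447, 0.0541, 0.0403 and 0.0690, and was also slow in MDA-MB-231 at 0.0971, 0.00871, 0.171 and 0.0588. Its medians exceeded those of only 14.2% and 13.2% of genes, and the difference was -0.0419 (standard error 0.0356, limma adjusted p = 0.461), or -0.0129 without MDA-MB-231 series 2_1. MXD3 and MXD1 therefore lay near opposite ends of the range of rates. Each had 1 TATTTAT site, and they had 1 and 10 ATTTA pentamers. Whether these elements bear on the rates was not tested. MXD4, another MAX-binding repressor, had 0.0783, 0.147, 0.206 and 0.282 in MDA-LM2 and 0.386, -0.119, 0.0862 and 0.141 in MDA-MB-231. Its MDA-MB-231 series spanned more than the 4 MDA-LM2 series, and the difference of 0.0547 (standard error 0.105) did not pass (limma adjusted p = 0.732).

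MXI1, which antagonises MYC and is known as a hypoxia-induced gene, had 0.133, 0.202, 0.0716 and 0.149 in MDA-LM2, in the middle of all genes (41.6% were below its median). In MDA-MB-231 it had 0.582 and 0.184 in 1_1 and 1_2 and -2.07 and -2.20 in 2_1 and 2_2. These pairs of series thus had opposite signs. A negative rate reads as a rise of labelled RNA after the pulse, but the scaling and the treatment of zeros are not stated. Whether labelled MXI1 RNA rose was not tested. The median of the 4 series lay above that of 0.683% of genes in that line. The difference of 1.01 (standard error 0.676) did not pass (limma adjusted p = 0.352), and with rates limited to within 1 of 0 it was 0.447.

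MAX, the shared partner of the MYC and MXD proteins, had 1 transcript with rates in both lines, NM_145112. Its rates were 0.331, 0.496, 2.92 and 0.350 in MDA-LM2 and 0.277, -0.212, 2.62 and 0.188 in MDA-MB-231. Series 2_1 was the high one in each line, and the other 6 rates stayed between -0.212 and 0.496. The median exceeded that of 93.0% of genes for MDA-LM2 and 57.2% for MDA-MB-231, and the lines did not separate (difference 0.304, standard error 0.836, limma adjusted p = 0.817). MAX was therefore not among the slow members in MDA-LM2. Its other transcripts were seen in 1 line each. NM_197957 had -0.0016, 0.374, 0.136 and 9.84 in MDA-LM2. In MDA-MB-231, NM_145113 had 9.46, 9.26, 9.37 and 9.34, and NM_145114 had -8.34, -8.59, -8.21 and -8.48. How reads were divided among the variants is not stated. Such opposite extremes within 1 gene in 1 line are given as listed values, and their cause was not tested.

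**Figure D2:**
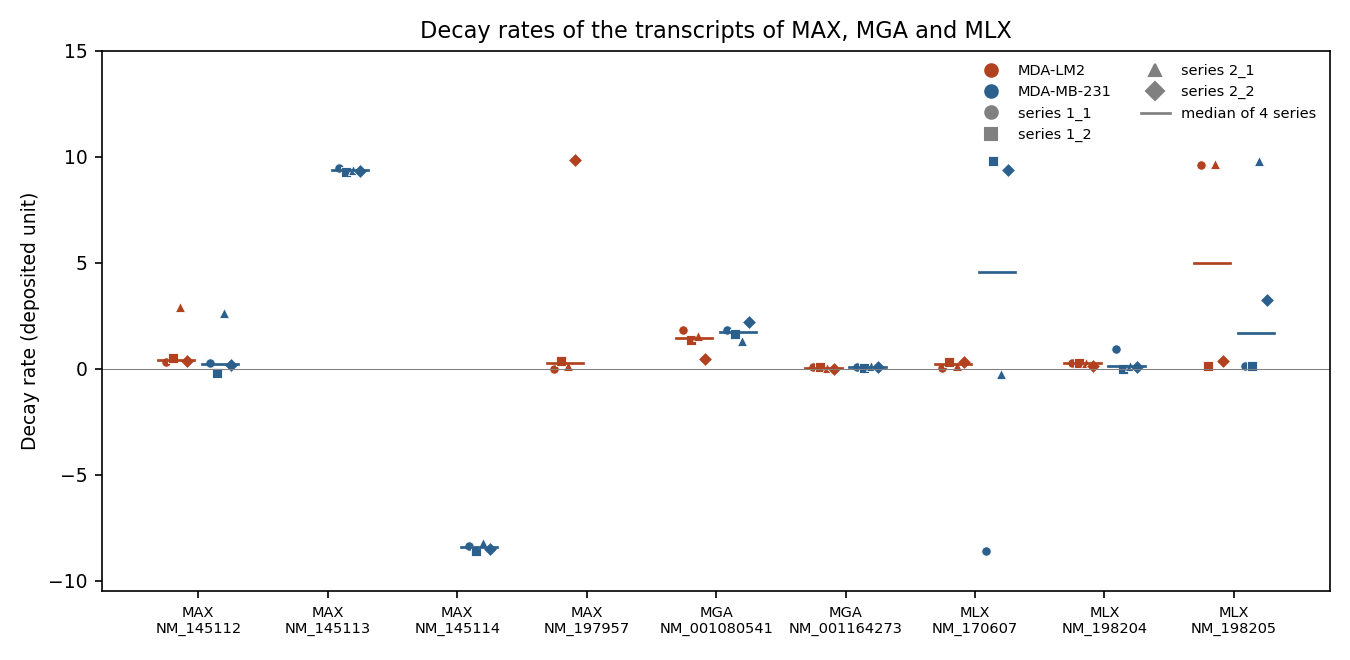
Decay rate in the deposited unit of each transcript of MAX, MGA and MLX in every series (points, with the median of 4 series as a bar; a transcript with rates in 1 line shows that colour only). NM_001080541 of MGA lay above NM_001164273 in all 8 series, and the MLX transcripts held values near 0 beside others of 9.36 to 9.80 and 1 of -8.57.

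MGA, which joins MAX in a repressive complex of the polycomb type, had a transcript with high rates and another with low rates. As for MAX, how reads were divided between them is not stated, so the rates may not be those of separate RNAs. NM_001080541 had 1.84, 1.37, 1.55 and 0.474 in MDA-LM2 and 1.81, 1.62, 1.29 and 2.23 in MDA-MB-231. These rates were out of range in every series except MDA-LM2 series 2_2. NM_001164273 had 0.0722, 0.0656, 0.0290 and -0.0116 in MDA-LM2 and 0.101, 0.0596, 0.131 and 0.0840 in MDA-MB-231. The first was higher in 8 of 8 series, by 1.27 ± 0.556 for MDA-LM2 and 1.64 ± 0.406 for MDA-MB-231 (n = 4 series each), and their ranges did not overlap in either line. It stood above 97.6% and 85.0% of transcripts, the second above 15.9% and 19.3%. The matched 3′ UTRs had 2661 and 2663 bases, 4 pentamers each and the same TATTTAT site, so these features were shared by both transcripts. The gene's value, the midpoint of both, was 0.673 ± 0.312 for MDA-LM2 and 0.915 ± 0.189 for MDA-MB-231 (difference -0.242, standard error 0.177, limma adjusted p = 0.397) and describes neither. The difference was -0.0948 without MDA-LM2 series 2_2. Per transcript, neither differed between the lines (limma adjusted p = 0.478 and 0.23).

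MLX and MLXIP form the branch of the network that answers to glucose. MLXIP was steady, with 0.159, 0.172, 0.176 and 0.159 in MDA-LM2 and 0.129, 0.0502, 0.0997 and 0.194 in MDA-MB-231, and the difference of 0.0483 (standard error 0.0306) did not pass (limma adjusted p = 0.327). Its SD of 0.00832 in MDA-LM2 was the smallest of any member in that line. MLX, as the median of 3 transcripts, had 0.292, 0.268, 0.263 and 0.338 in MDA-LM2 and 0.154, 0.142, 0.136 and 3.26 in MDA-MB-231. As with MYC, 3 MDA-MB-231 series lay below every MDA-LM2 series and 1 lay far above. The difference was -0.633 (standard error 0.721, limma adjusted p = 0.558). Without MDA-MB-231 series 2_2 it was 0.146 (limma adjusted p = 0.0206, in a fit that called 1.61% of all genes faster). With correlated series as well, the limma adjusted p was 0.242. This series too was omitted for its value, so these figures describe how far 1 series sets the result.

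The transcripts of MLX differed among themselves in the deposited rates, and how reads were divided among them is not stated. NM_198204 was the steadiest, at 0.292, 0.268, 0.263 and 0.139 in MDA-LM2 and 0.922, -0.0129, 0.136 and 0.0836 in MDA-MB-231. NM_170607 had 0.0393, 0.299, 0.110 and 0.338 in MDA-LM2 and -8.57, 9.80, -0.256 and 9.36 in MDA-MB-231, which covers both extremes. NM_198205 had 9.61, 0.137, 9.68 and 0.368 in MDA-LM2 and 0.154, 0.142, 9.79 and 3.26 in MDA-MB-231. The gene median was thus taken from different transcripts in different series. The 3 matched 3′ UTRs had the same length and the same 2 pentamers.

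**Figure D3:**
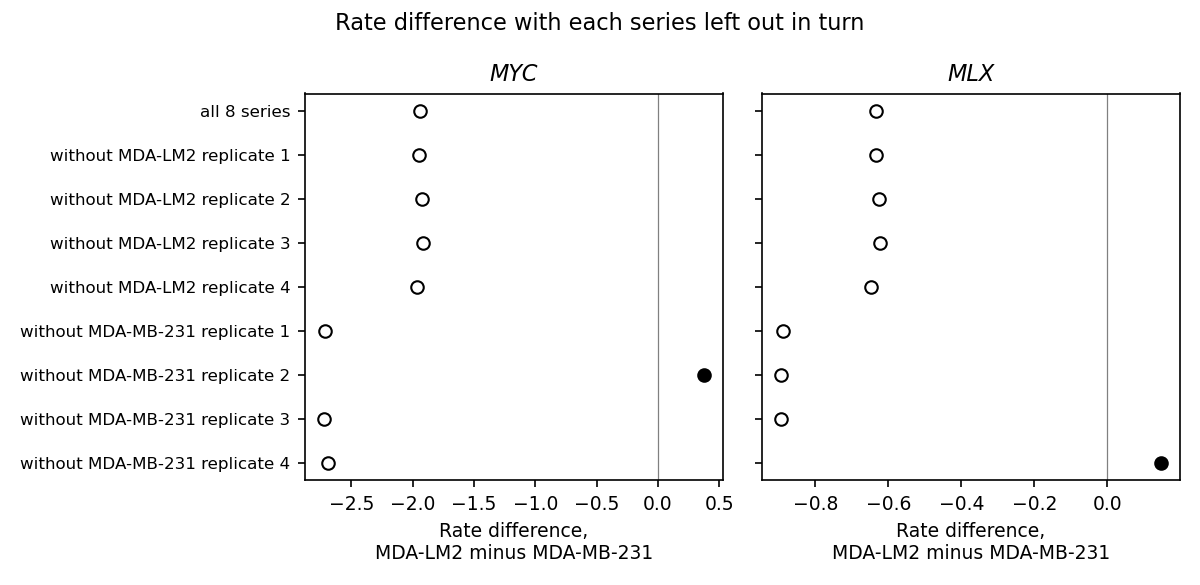
Difference in mean rate, MDA-LM2 minus MDA-MB-231, of MYC and MLX with all 8 series and with each series left out in turn (filled points have a limma adjusted p at or under 0.05). Leaving out MDA-MB-231 replicate 2 (series 1_2) moved MYC from -1.94 to 0.378, and leaving out MDA-MB-231 replicate 4 (series 2_2) moved MLX from -0.633 to 0.146.

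No member was called different between the lines. The limma fit over all genes called 8.72% of 10829 genes at an adjusted p of 0.05, 6.71% slower and 2.00% faster in MDA-LM2, and 0 of the 9 members, of which 0 also had an unadjusted p under 0.05, as 26.2% of all genes had. The fit over transcripts called 7.94% of 12966 and 0 of the 12 member transcripts. The score in the authors' deposited table, read as 1 minus p, passed the same adjusted threshold for 5.56% of transcripts and for 0 of these 12, whose scores in the authors' deposited table ran from -0.793 for MLXIP to 0.932 for MGA NM_001164273. The ranges of the 4 series overlapped between the lines for all 9 members, while they did not overlap for 23.2% of genes. The mean rate was lower in MDA-LM2 for 5 of 9 members and the median over series for 3 of 9. MYC and MLX are the members whose mean and median differ in sign. A missed threshold does not show that the lines act alike, and 6 of the 9 members had at least 1 rate out of range.

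**Figure D4:**
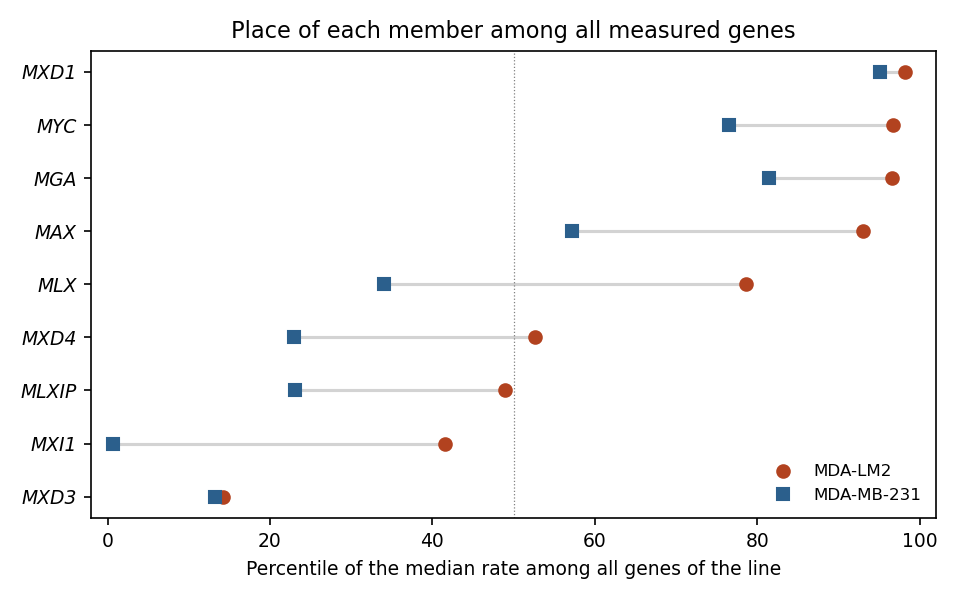
Percentile of each member's median rate among all 10829 genes of the same line (circles MDA-LM2, squares MDA-MB-231; a high percentile means faster decay than most genes). MXD1 stood at 95.2 or higher and MXD3 at 14.2 or lower in both lines, and MXI1 moved from 41.6 to 0.683.

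Ordered by the median of the 4 series, the members in MDA-LM2 ran from MXD1 (1.55) through MYC (0.808), MGA (0.752), MAX (0.423), MLX (0.280), MXD4 (0.176), MLXIP (0.166) and MXI1 (0.141) to MXD3 (0.0472). Neighbours in that order overlapped in their ranges except MXI1 and MXD3. MYC lay clear of 5 members, MLX, MXD4, MLXIP, MXI1 and MXD3, in all 4 MDA-LM2 series, and MXD3 lay below all the other 8. In MDA-MB-231 the order was MXD1 (5.25), MGA (0.896), MYC (0.459), MAX (0.233), MLX (0.148), MLXIP (0.114), MXD4 (0.113), MXD3 (0.0780) and MXI1 (-0.942), and only MXD1 and MGA were clear of each other among neighbours. The first 5 places were held by the same 5 genes in both lines. The percentile among all genes was higher in MDA-LM2 for 9 of 9 members, as it was for 53.2% of all genes. A percentile depends on the other genes of its line, and 17.5% of all rates were out of range in MDA-MB-231 against 3.96% in MDA-LM2. For MXD1, MXD3 and MGA the median rate itself was lower in MDA-LM2. A higher percentile there is therefore not a faster rate.

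MYC and the MXD members as a group were not faster than their partners in MDA-LM2, and the MDA-MB-231 series were divided. The median over MYC, MXD1, MXD3, MXD4 and MXI1 was 0.206 ± 0.061 for MDA-LM2 and 0.229 ± 0.129 for MDA-MB-231, and that over MAX, MGA, MLX and MLXIP was 0.376 ± 0.108 and 0.353 ± 0.254 (n = 4 series each). The first minus the second was -0.179, -0.180, -0.319 and -0.00302 in the MDA-LM2 series and 0.206, 0.0878, -0.253 and -0.535 in the MDA-MB-231 series. It was negative in 4 of 4 MDA-LM2 series and in MDA-MB-231 positive in 1_1 and 1_2 and negative in 2_1 and 2_2. The split runs within each group: MYC and MXD1 were fast while MXD3, MXD4 and MXI1 were not. For MXD1 3 MDA-LM2 rates and all 4 MDA-MB-231 rates were out of range, as were 2 MDA-MB-231 rates of MXI1. Among the partners a transcript of MGA was fast, with most of its rates out of range, and MLXIP was not. MAX ranked high in MDA-LM2 (93.0) and near the middle in MDA-MB-231 (57.2). With 9 genes chosen with earlier results known, these medians carry no test. The partner median also uses the midpoint of the MGA transcripts, which describes neither. Only 3 members had all rates in range, which leaves MXD3 and MXD4 against MLXIP, without MYC. That contrast, of other genes than the main one, was -0.0564 for MDA-LM2 and -0.0145 for MDA-MB-231.

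Genes that work with the network were taken from lists of known cofactors, regulators and targets. Their rates are gene medians over transcripts, which are not given one by one here. As with MGA, such a value may describe none of a gene's transcripts. Of 18 MYC cofactors all were measured and 2 were called slower in MDA-LM2, with 0 called faster, beside 6.71% and 2.00% of all genes. ACTL6A, a subunit of chromatin remodellers, had 0.0415 ± 0.0072 against 0.183 ± 0.0544 (limma adjusted p = 0.0248; 0.0697 if series may correlate). RUVBL2, an ATPase of the same kind of complex, had -0.00149 ± 0.0103 against 0.0438 ± 0.00353 (0.0482; 0.19 with correlated series). Of a list of MAD (MXD) and MNT corepressors, which also holds the MGA partners PCGF6, L3MBTL2 and E2F6, 12 of 14 were measured, 1 was called slower and 0 faster, beside the same shares of all genes. This was RBBP7, a histone chaperone of SIN3 complexes, with 0.0207 ± 0.0171 against 0.120 ± 0.0096 (limma adjusted p = 0.0061; 0.0414 with correlated series). The median over the cofactors was 0.196 ± 0.0202 and 0.223 ± 0.0552, and over the corepressors 0.122 ± 0.0129 and 0.142 ± 0.0121, the latter below the 0.165 and 0.189 of all genes.

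Proteins that bind MYC messenger RNA were measured for 11 of 14, with 1 called faster and 1 slower in MDA-LM2, beside 2.00% and 6.71% of all genes. ZFP36L1, which speeds the decay of AU-rich messages, had 0.544, 0.522, 0.582 and 0.491 in MDA-LM2 and 0.369, 0.267, 0.363 and 0.314 in MDA-MB-231. Its series did not overlap and it decayed faster in MDA-LM2 (limma adjusted p = 0.0183), though not with correlated series (0.0652). TIAL1, a translational repressor that binds AU-rich messages, had 0.213 ± 0.0514 against 1.50 ± 0.0841 (limma adjusted p = 5.91e-05; 0.000325 with correlated series), with all 4 MDA-MB-231 rates out of range. Regulators of MYC protein turnover had 17 of 19 measured and 0 called by limma, with 2 at an unadjusted p under 0.05 (26.2% of all genes). The fastest, PIM1, a kinase that stabilises MYC, had 0.430 ± 0.0469 and 0.412 ± 0.194.

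Of 45 MYC target genes 44 were measured, 5 called slower and 2 faster in MDA-LM2, that is in 7 of 44 against 8.72% of all genes. The median over the targets was 0.103 ± 0.0201 and 0.126 ± 0.0184, also below that of all genes in both lines, and 33 of 44 had the lower mean in MDA-LM2 beside 7252 of 10829 genes. NOP56, a core protein of box C/D nucleolar particles, had the largest called difference, with 0.207 ± 0.0232 against 1.58 ± 0.0487 (limma adjusted p = 5.89e-05; 0.000325 with correlated series), again with all 4 MDA-MB-231 rates out of range. The other slower genes were NPM1, FBL, EIF4E and HSPE1, named after their values were seen, with differences from -0.0598 for NPM1 to -0.0924 for EIF4E. IMP4, a ribosome assembly factor, was called faster, with 0.171 ± 0.0102 against 0.0611 ± 0.0509 (limma adjusted p = 0.0493), and so was the nucleolar protein NCL (0.149 ± 0.0162 against 0.0646 ± 0.0234), also named after its values were seen. Only NOP56 of these 7 kept its call with correlated series.

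Of 6 targets of the MLXIP and MLX pair 5 were measured and 0 were called by limma, with 3 at an unadjusted p under 0.05 (26.2% of all genes). TXNIP, their best known target and an inhibitor of glucose uptake, was the fastest, with 0.343 ± 0.0345 for MDA-LM2 and 0.485 ± 0.166 for MDA-MB-231 (limma adjusted p = 0.288). Other E-box factors of the same protein family had 7 of 8 members measured and 0 called by limma, with 2 at an unadjusted p under 0.05, against the same 26.2%. Their fastest, MITF, as a median over transcripts, stood out of range in all 8 series (6.05 ± 2.31 and 6.06 ± 2.21). The family members MYCN, MYCL and MLXIPL were not analysed here.

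The genes whose pattern over the 8 series was most like that of MYC were PPAN, MAP3K14, MIS12, FEM1A and PRKCH, with root mean square differences in rate of 0.195, 0.242, 0.282, 0.285 and 0.294. With a measure of this kind the 9.70 of MYC in MDA-MB-231 series 1_2 weighs most, so a rate close to it there (9.39 to 9.81) follows from how these genes were picked. PPAN was the nearest, with 0.742, 0.729, 0.512 and 0.580 in MDA-LM2 and 0.152, 9.72, 0.252 and 0.297 in MDA-MB-231. Those most like MAX were CFAP251, PMS2, STX3, ACSS2 and KBTBD4, at 0.350, 0.659, 0.741, 0.752 and 0.814. The high rates of MAX in series 2_1 weigh most in the same way, and all 5 had their highest rate of each line there, CFAP251 with 2.12 for MDA-LM2 and 2.20 for MDA-MB-231. STX3 and ACSS2 were also high in MDA-MB-231 series 2_2, at 2.14 and 2.09, where MAX had 0.188.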

How the data were processed

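Decay rates, values of no fixed range (scores), were deposited by the authors per transcript and series, per the file headers. Per the submitters' processing notes, TopHat and Cufflinks were used with hg18; their versions and roles, the scaling and how zeros entered a rate were not stated. Depth is unknown. The deposited differential score equalled, within 0.001 for 12966 of 12966 transcripts, 1 minus the p of an unequal-variance comparison, signed positive where the mean rate was lower for MDA-LM2.

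RefSeq accessions were matched to the RefSeq gene table of GRCh38.p14 (12644) and to GENCODE 29 (118), and 204 without a symbol stayed as features of their own. A gene's rate was the median over its transcripts. The 4 against 4 rates were compared with limma 3.58.1 in R 4.3.3 (two-sided, with a trend in the variance and Benjamini-Hochberg adjustment over all features, no block), checked on simulated data. The simulated noise was normal, independent and of equal spread in both lines, with changes put into genes in range only. The check therefore does not cover lone far rates, unequal spread or correlated series. Alternatives were no trend, centred series, rates limited to within 1 of 0, genes in range alone, the mean over transcripts, a replicate block, a correlation between series of 1 line with the same second number (estimated at 0.457), and each series left out. A correlation by the first number was not fitted, so calls kept or lost with correlated series rest on that choice. The fit on rates limited and correlated per transcript, the correlated fits without a series and the median over series were added after the data were seen. Members and lists were chosen with earlier results of these data known. Beside the members, the text names from each list the 2 largest called differences, or else the fastest gene, and the 5 nearest genes to MYC and MAX by rate (names starting LOC, MIR or SNOR and rows without a symbol passed over). Numbers of the labels were not read as pairing series across the lines: same-numbered series correlated between -0.0189 and 0.00861 in their deviations. The 3′ UTR was that of the GENCODE transcript linked to the accession, the longest where several were. No per-sample column was left unmapped to a line.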

Additional observations from a re-analysis of the deposited data

Results flagged for a closer look

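In 5 of 33 groups of 4 series tested, a lone series lay far from the other 3 by Dixon's criterion. Independent, normally distributed values would give about 5% of groups. The rates need not be of that kind, and some genes were counted along with their transcripts. The share over all genes is not given here, so no excess can be read from this count. MYC in MDA-MB-231 had 9.70 in series 1_2. MAX in MDA-LM2 had 2.92 in series 2_1, and MAX had 2.62 in the same-named MDA-MB-231 series, just inside the criterion. MLX in MDA-MB-231 had 3.26 in series 2_2 as a gene and 0.922 in series 1_1 for NM_198204. MAX NM_197957 in MDA-LM2 had 9.84 in series 2_2. The cause of these values was not tested.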

How the results depend on the processing

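Read depth is unknown, and 4 series per line limit the precision. Of 171 alternative values of the members' differences, 12 changed sign. For MYC these were 0.237 with rates limited to within 1 of 0, 0.378 without MDA-MB-231 replicate 2, 0.368 with correlated series also without it, and 0.350 by the median over series. For MLX they were 0.146 without MDA-MB-231 replicate 4, 0.146 with correlated series also without it, 0.132 by the median over series, and 0.0104 for NM_170607 with rates limited. MXD4 turned to -0.0262 without MDA-MB-231 replicate 2 (-0.0157 with correlated series) and MAX to -0.327 without MDA-LM2 replicate 3 and -0.00664 without MDA-MB-231 replicate 2. With each series left out in turn the difference ranged from -2.72 to 0.378 for MYC, -0.895 to 0.146 for MLX, -0.0262 to 0.142 for MXD4, -0.327 to 0.939 for MAX, -5.38 to -2.69 for MXD1, 0.573 to 1.50 for MXI1, -0.337 to -0.0948 for MGA, -0.0670 to -0.0129 for MXD3 and 0.0257 to 0.0737 for MLXIP. Limiting rates to within 1 of 0 moved MXD1 from -4.06 to -0.209 and MXI1 from 1.01 to 0.447, and centring moved MXD3 from -0.0419 to -0.0172 and MLXIP from 0.0483 to 0.0731. With 1 series left out, members called faster ranged from 0 to 1 and members called slower from 0 to 0. Over all genes, leaving out a series gave 406 to 1008 slower and 84 to 283 faster, against 727 and 217. The replicate block gave 250 and 27, and called 0 members; 1 of 8 series correlated best with its own number. Correlated series gave 344 and 35 (443 and 32 without MDA-MB-231 replicate 2, 357 and 18 without MDA-MB-231 replicate 4). Centring gave 560 slower and 434 faster. The cause was not tested, beyond the smaller number of series. MYC and MXD members minus partners was -0.574 for MDA-LM2 and -0.518 for MDA-MB-231 with the mean over transcripts (main values -0.170 and -0.124). With a series left out it ranged from -0.226 to -0.120 and from -0.233 to 0.0134. Over the members in range, which leave only MXD3 and MXD4 against MLXIP, it was -0.0564 and -0.0145.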
